A study of Mus musculus with 5 samples.

Results

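The genes described here are 37 genes of DNA replication, a list that runs from origin licensing through the replicative helicase and polymerases to nucleotide synthesis and entry into S phase. Their transcripts were followed in mouse gastric organoids, epithelial cultures grown from stomach, on 5 one-colour Agilent arrays. The list was chosen by gene symbol. All 37 genes had a named probe among 23779 genes, and 36 were tested among 17583 genes. The remaining gene, Ccne2, had a single probe that was not well above background on any array. The 36 tested genes were well above background on all 5 arrays.

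Each sample was 1 array. 4 samples were organoids recovered from subcutaneous tumours, all with loss of the tumour suppressor gene Trp53. A pair of them also carried a short hairpin RNA against Cdh1 (shCdh1 #1 and shCdh1 #2, called hairpins 1 and 2, n = 2). Another carried the Apc allele named Apc580D in the labels, and another the activating Pik3ca allele Pik3caH1047R (n = 1 each). The control was a gastric organoid line from Trp53flox/flox mice that carried the pLKO.1 vector with shLuc, a luciferase hairpin, and was taken before any inoculation (n = 1). All 5 cultures were labelled female stomach and shared 1 serum-free medium containing EGF, Noggin, Jagged-1, R-spondin1, Y27632 and CHIR-99021. Nothing in the labels says that the samples came from separate animals or cultures, so p-values measure only the spread between these samples, which may be technical. When all tumour-derived arrays are set against the control, that spread also holds the differences between genotypes and between slides. The control and both hairpins lay on slide 1, and Apc and Pik3ca on slide 2. Trp53 loss, the second lesion, growth as a tumour and, for Apc and Pik3ca, the slide cannot be told apart in a comparison with the control.

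Replication starts where the origin recognition complex, Cdc6 and Cdt1 load the Mcm2-7 ring onto DNA in G1. Cyclin E with its kinase and the E2F transcription factors promote the step into S phase, where Cdc45 and the GINS complex turn the loaded ring into an active helicase. Primase and polymerase alpha lay down primers, polymerases delta and epsilon extend them on the sliding clamp PCNA, and ribonucleotide reductase, thymidylate synthase and thymidine kinase supply deoxynucleotides. Many of these genes are known E2F targets. In proliferating epithelium such as that of the stomach, their transcripts are commonly read together with the proportion of cycling cells. In a bulk sample, fewer cells in S phase and less RNA per cell cannot be told apart.

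Promoter windows were examined because members of this pathway are known to share E2F sites and because many of them shared an order of levels across the arrays. A RefSeq window of 300 bases, from 250 before to 50 after the annotated start in GRCm38.p6, was available for 30 of the 37 genes. The E2F letters TTTCCCGC, TTTGGCGC or TTCGCGCC, or their reverse complements, stood in a window of 13 of these 30 genes (43.3%). The same letters stood in 3.62% of 13876 tested genes with a window, in 2.35% of all 27025 genes with a window, and in 0 of 26 mitotic genes. The letters CCAAT or ATTGG stood in 18 of the 30 (60.0%), against 42.7% of tested genes, and in 20 of 26 mitotic genes (76.9%). The 13 genes with E2F letters had a median tumour-minus-control difference of 0.32 on the log2 scale (range −0.48 to 0.72), and the 17 tested genes with a window but without them 0.18 (range −0.58 to 0.76). The ranges with and without the letters overlapped almost wholly. The 6 tested genes without a window, whose letters are unknown, had a median of 0.36 (range 0.09 to 0.56). A match describes letters only. 5 windows are shown as the table gives them, with matches in capitals. TTTGGCGC and GGCGCGAA overlap in Mcm6, so a single run of capitals there holds a pair of matches. The Mcm6 window (chr1:128359656-128359955, minus strand) held the most matches, 4 of the E2F letters and 2 of ATTGG. The others belong to genes on which the comparisons turn: Pold1 (chr7:44548766-44549065, minus strand), with 1 E2F match; Cdc45 (chr16:18811923-18812222, minus strand), with 2 ATTGG; Rrm2 (chr12:24708004-24708303, plus strand), with 1 CCAAT; and Ccne1 (chr7:38107441-38107740, minus strand), with none of these letters.
Mcm6: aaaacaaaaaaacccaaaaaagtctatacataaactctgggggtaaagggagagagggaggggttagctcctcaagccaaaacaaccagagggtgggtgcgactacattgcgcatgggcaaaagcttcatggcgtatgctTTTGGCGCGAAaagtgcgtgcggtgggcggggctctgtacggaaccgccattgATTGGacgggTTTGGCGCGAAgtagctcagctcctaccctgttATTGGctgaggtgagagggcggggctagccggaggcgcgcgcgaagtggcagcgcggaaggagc
Pold1: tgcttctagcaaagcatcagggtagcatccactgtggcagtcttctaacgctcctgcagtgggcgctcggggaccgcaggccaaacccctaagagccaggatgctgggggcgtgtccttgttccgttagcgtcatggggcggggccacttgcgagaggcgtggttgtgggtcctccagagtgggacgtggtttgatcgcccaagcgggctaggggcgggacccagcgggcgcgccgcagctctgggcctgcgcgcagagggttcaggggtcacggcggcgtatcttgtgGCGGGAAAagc
Cdc45: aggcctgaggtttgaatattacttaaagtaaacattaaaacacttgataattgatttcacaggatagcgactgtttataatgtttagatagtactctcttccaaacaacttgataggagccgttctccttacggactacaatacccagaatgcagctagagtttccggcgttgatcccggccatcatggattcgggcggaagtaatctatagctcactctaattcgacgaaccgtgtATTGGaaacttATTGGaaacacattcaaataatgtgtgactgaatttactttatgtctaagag
Rrm2: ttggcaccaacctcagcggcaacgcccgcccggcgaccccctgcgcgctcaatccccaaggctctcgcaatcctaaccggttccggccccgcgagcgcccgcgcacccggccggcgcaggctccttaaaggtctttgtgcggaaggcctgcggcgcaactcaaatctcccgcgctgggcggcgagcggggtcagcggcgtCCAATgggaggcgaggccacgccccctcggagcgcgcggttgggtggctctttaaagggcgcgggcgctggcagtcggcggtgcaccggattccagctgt
Ccne1: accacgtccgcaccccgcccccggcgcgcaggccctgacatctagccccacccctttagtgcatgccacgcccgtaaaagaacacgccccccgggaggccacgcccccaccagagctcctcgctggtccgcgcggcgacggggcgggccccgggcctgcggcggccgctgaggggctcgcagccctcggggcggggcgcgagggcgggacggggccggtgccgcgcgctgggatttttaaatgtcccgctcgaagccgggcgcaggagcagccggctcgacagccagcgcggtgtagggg

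The tumour-derived organoids were compared with the control to ask how replication transcripts stood after tumour growth. Most members were slightly higher in the tumour-derived organoids, and none passed the test. Levels are log2 signals with each array's 75th percentile set to 0, and a difference of 1 on this scale is a 2-fold difference. The mean of the 4 tumour-derived arrays was above the control for 27 of 36 members, against 9747 of 17583 genes, and below it for 9. The median difference was 0.23, against 0.06 over all genes tested. With the slide as a block, where slide 1 alone carries the difference, it was 0.35. By limma with Benjamini-Hochberg adjustment over all 17583 genes, 0 of 36 members passed an adjusted p of 0.05, against a background of 0.119%. At an unadjusted p under 0.05 there were also 0 members, against 13.3% of all genes, and limma with a trended prior passed 0. No member differed by 2-fold, against 16.9% of all genes.

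All 4 tumour-derived arrays lay above the control for 14 of the 36 members, against 30.2% of all genes tested. All 4 lay below it for 4 members, Orc1, Fen1, E2f1 and Ccne1, against 24.4%. For 13 members the hairpins and Pik3ca lay above the control and Apc below it, against 7.3% of all genes. Their Apc differences ran from −0.08 (Rfc4) to −0.75 (Rrm2), and genes are not independent replicates. Apc was the lowest of the 4 tumour-derived arrays for 27 of the 36, against 31.3% of all genes. It was also the lowest for 65.0% of 40 further replication factors, 66.7% of 18 genes of chromatin at replication and 53.3% of 30 mitotic genes. The share was 44.0% of 25 genes of nucleotide supply and 43.3% of 30 E2F, pocket protein and G1 cyclin genes. After normexp background correction with quantile normalization, Apc was lowest for 26 of the 36 members and 6 of 30 mitotic genes, against 4373 of 17583 genes. On the separate arrays the median difference from the control was 0.30 with hairpin 1, 0.37 with hairpin 2, −0.09 in Apc and 0.26 in Pik3ca, over differences that were above 0 for 30, 31, 15 and 28 members. Over all 17583 genes tested, 9890, 9875, 8664 and 9540 differences were above 0 on these arrays. The Apc median was 0.01 after normexp background correction with quantile normalization, so its sign depends on the scaling.

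**Figure D1:**
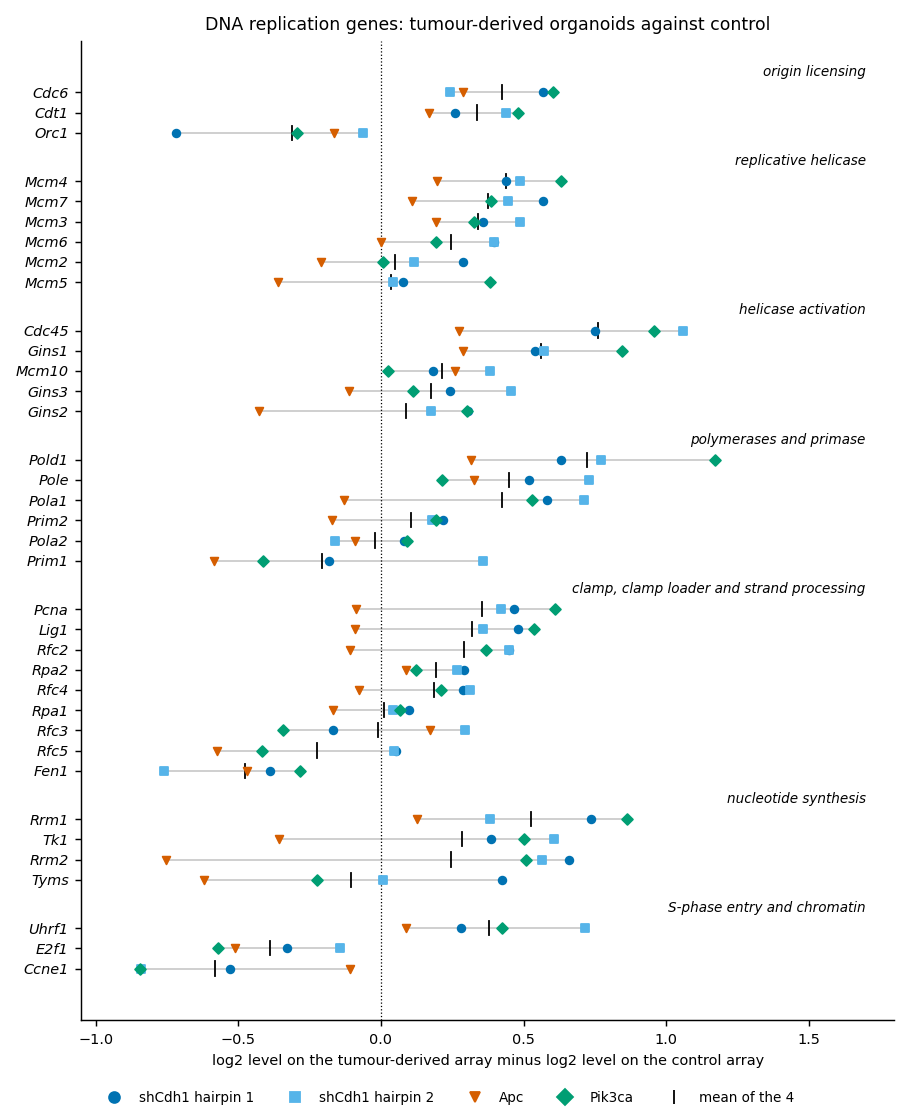
Difference from the control on each tumour-derived array (horizontal axis, log2 units) for the 36 tested members, grouped by role. Each symbol is 1 array, the black tick is the mean of the 4 and the grey line their range. The Apc triangles are the leftmost symbol for 27 members, and Cdc45 and Pold1 have the highest means.

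Among the licensing genes, those that load the helicase at origins, Cdc6 and Cdt1 were above the control on all 4 tumour-derived arrays and Orc1 was below it on all 4. Cdc6, a helicase loader, had levels of 1.21 and 0.88 with shCdh1 hairpins 1 and 2, 0.92 in Apc and 1.24 in Pik3ca, against 0.64 in the control. Its mean difference was 0.43 ± 0.25 (SE of the limma fit, limma adjusted p = 0.529). The other loader, Cdt1, had levels of 3.96 (hairpin 1), 4.14 (hairpin 2), 3.87 (Apc) and 4.18 (Pik3ca), against 3.70 in the control, a mean difference of 0.34 ± 0.23. Standing above the single control on all 4 arrays was shared by 30.2% of all genes tested, and neither loader passed. Orc1, a subunit of the origin recognition complex, read −2.12 and −1.46 with shCdh1 hairpins 1 and 2, −1.56 in Apc and −1.69 in Pik3ca, against −1.40 in the control, and hairpin 1 stood lowest. Its mean difference was −0.31 ± 0.32 (limma adjusted p = 0.715). A second Orc1 probe gave 0.28, the opposite sign, so the direction of Orc1 is not settled by these arrays.

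The 6 genes of the Mcm2-7 ring, the core of the replicative helicase, all had a tumour mean above the control, with a median of 0.29, and 0 of 6 passed. Differences ranged from 0.03 for Mcm5 to 0.44 for Mcm4. Mcm4 had levels of 3.67 and 3.71 with shCdh1 hairpins 1 and 2, 3.42 in Apc and 3.86 in Pik3ca, against 3.23 in the control, a mean difference of 0.44 ± 0.25 (limma adjusted p = 0.512). Mcm6, the ring gene with the most E2F letters in its window, had levels of 5.09 (hairpin 1), 5.10 (hairpin 2), 4.70 (Apc) and 4.89 (Pik3ca), against 4.70 in the control, so Apc equalled the control while both hairpins stood above it. Its second probe gave −0.07 for the mean difference. Mcm5 differed most among the tumours: its differences from the control were 0.08 and 0.04 with hairpins 1 and 2, −0.36 in Apc and 0.38 in Pik3ca. Apc was the lowest of the 4 tumour-derived arrays for all 6 ring genes, and for 4 of 6 after quantile normalization, with or without normexp. Mcm3 and Mcm7, each with more than 1 probe, had means of 0.34 and 0.38, and Mcm2 had 0.05.

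The 5 genes that activate the ring were all higher in the mean of the tumour-derived organoids (median 0.21), and 0 of 5 passed. Cdc45, which joins the ring in the active helicase, had the largest mean difference of the 36 members. Its levels were −0.97 and −0.66 with shCdh1 hairpins 1 and 2, −1.44 in Apc and −0.76 in Pik3ca, against −1.72 in the control. The Apc array lay closest to the control and the other 3 stood together above it. The mean difference was 0.76 ± 0.36, a 1.69-fold higher signal, with limma adjusted p = 0.444. A second Cdc45 probe gave 0.84. Gins1, a subunit of the GINS complex, had levels of 1.48 (hairpin 1), 1.52 (hairpin 2), 1.23 (Apc) and 1.79 (Pik3ca), against 0.94 in the control, again with Apc lowest of the tumours and all 4 above the control. Its mean difference was 0.56 ± 0.28 (limma adjusted p = 0.461), and its second probe gave 0.79. The other GINS genes measured, Gins2 and Gins3, stood below the control in Apc (differences of −0.43 and −0.11) and above it on the other 3 arrays. Gins3 had levels of 5.07 (hairpin 1), 5.28 (hairpin 2), 4.71 (Apc) and 4.94 (Pik3ca), against 4.83 in the control. Mcm10, a helicase activation factor, differed from the control by 0.18 and 0.38 with hairpins 1 and 2, 0.26 in Apc and 0.03 in Pik3ca. Pik3ca, not Apc, was nearest the control for this gene.

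The polymerase and primase genes were mixed. 4 of 6 had a higher tumour mean and 2 a lower one (median 0.26), and none passed in this comparison. Pold1, the catalytic subunit of polymerase delta, had levels of 2.72 and 2.86 with shCdh1 hairpins 1 and 2, 2.40 in Apc and 3.26 in Pik3ca, against 2.09 in the control. Every tumour-derived array stood above the control, with Pik3ca highest and Apc lowest. The mean difference was 0.72 ± 0.36, 1.65-fold (limma adjusted p = 0.469). In Pik3ca alone Pold1 was 2.25-fold higher than in the control, 1.17 ± 0.32 on the log2 scale, with an unadjusted p of 0.0359 and a limma adjusted p = 0.402. Pole, the catalytic subunit of polymerase epsilon, read 2.05 (hairpin 1), 2.26 (hairpin 2), 1.86 (Apc) and 1.75 (Pik3ca), against 1.53 in the control, with a mean difference of 0.45 ± 0.28 (limma adjusted p = 0.544). Here both hairpins stood highest and Pik3ca was the lowest tumour. Pola1, the catalytic subunit of polymerase alpha, had levels of 1.72 (hairpin 1), 1.85 (hairpin 2), 1.01 (Apc) and 1.66 (Pik3ca), against 1.14 in the control, above the control in 3 tumours and slightly below it in Apc, with a mean of 0.42 ± 0.38 (limma adjusted p = 0.676).

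The accessory subunit Pola2 differed from the control by 0.08 and −0.16 with hairpins 1 and 2, −0.09 in Apc and 0.09 in Pik3ca, within a range of 0.25 among the tumours. Prim1, the small primase subunit, read 2.89 and 3.43 with shCdh1 hairpins 1 and 2, 2.49 in Apc and 2.66 in Pik3ca, against 3.07 in the control, so hairpin 2 alone stood above the control. The hairpins differed by 0.54 on the log2 scale, the widest gap between them after that of Orc1 (0.66). The large primase subunit Prim2 had levels of 1.17 (hairpin 1), 1.14 (hairpin 2), 0.79 (Apc) and 1.15 (Pik3ca), against 0.96 in the control, with 3 tumours tightly together and Apc below the control.

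Among the 9 genes for the clamp, its loader and strand processing, 6 had a higher and 3 a lower tumour mean (median 0.18), and 0 of 9 passed. Pcna, the sliding clamp, had levels of 4.75 and 4.70 with shCdh1 hairpins 1 and 2, 4.20 in Apc and 4.89 in Pik3ca, against 4.28 in the control. Lig1, which joins Okazaki fragments, read 4.07 (hairpin 1), 3.94 (hairpin 2), 3.49 (Apc) and 4.12 (Pik3ca), against 3.59 in the control. Both genes stood above the control in 3 tumours and slightly below it in Apc, and so did the clamp loader genes Rfc4 and Rfc2. Rfc2 had levels of 3.49 (hairpin 1), 3.49 (hairpin 2), 2.94 (Apc) and 3.41 (Pik3ca), against 3.04 in the control. A further loader gene, Rfc5, had levels of 3.92 and 3.91 with shCdh1 hairpins 1 and 2, 3.29 in Apc and 3.45 in Pik3ca, against 3.86 in the control, with a mean difference of −0.22 ± 0.34 (limma adjusted p = 0.813), while the hairpins lay 0.05 above the control. With the slide as a block its difference was 0.049, the opposite sign. Rfc3 differed from the control by −0.17 and 0.29 with hairpins 1 and 2, 0.17 in Apc and −0.34 in Pik3ca, with both signs and no common direction.

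Fen1, the nuclease that trims flaps from Okazaki fragments, was below the control on every tumour-derived array. Its levels were 3.28 and 2.91 with shCdh1 hairpins 1 and 2, 3.20 in Apc and 3.38 in Pik3ca, against 3.67 in the control, with hairpin 2 lowest. The mean difference was −0.48 ± 0.26 (limma adjusted p = 0.502), so it did not pass. The single-strand binding genes varied little. Rpa1 differed from the control by 0.10 and 0.04 with hairpins 1 and 2, −0.17 in Apc and 0.07 in Pik3ca. For Rpa2 these differences were 0.29 and 0.27 with hairpins 1 and 2, 0.09 in Apc and 0.12 in Pik3ca. The 4 tumour-derived arrays spanned 0.20 for Rpa2, the narrowest range of the 36 members.

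The 4 nucleotide synthesis genes separated Apc from Pik3ca and the hairpins more widely than the other roles did. Their median difference from the control was 0.54 with hairpin 1, 0.47 with hairpin 2, −0.49 in Apc and 0.51 in Pik3ca. Rrm2, the small and cell-cycle-regulated subunit of ribonucleotide reductase, had levels of 3.94 and 3.85 with shCdh1 hairpins 1 and 2, 2.53 in Apc and 3.79 in Pik3ca, against 3.28 in the control. The hairpins and Pik3ca were close together above the control, and Apc was below it. The tumours spanned 1.41 on the log2 scale, the widest range of the 36 members, and the tumour mean differed by 0.24 ± 0.61 (limma adjusted p = 0.895). Rrm1, the large subunit of the same enzyme, had levels of 3.62 (hairpin 1), 3.26 (hairpin 2), 3.01 (Apc) and 3.74 (Pik3ca), against 2.88 in the control, above the control on all 4 arrays, with a mean of 0.53 ± 0.35 (limma adjusted p = 0.572). The subunits thus stood on opposite sides of the control in Apc alone.

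Tk1, the S-phase thymidine kinase, read 3.81 and 4.03 with shCdh1 hairpins 1 and 2, 3.06 in Apc and 3.92 in Pik3ca, against 3.42 in the control. As for Rrm2, Apc alone stood below the control, with a narrower spread. Its mean difference was 0.28 ± 0.43 (limma adjusted p = 0.811), and its second probe gave 0.48. Tyms, thymidylate synthase, had levels of 3.71 (hairpin 1), 3.30 (hairpin 2), 2.67 (Apc) and 3.07 (Pik3ca), against 3.29 in the control. Hairpin 1 was above the control, hairpin 2 level with it and the other tumours below, for a mean of −0.10 ± 0.43 (limma adjusted p = 0.941). The sign of the Tyms mean was not stable. It was 0.215 with the slide as a block, 0.069 without Apc, and 0.07 from the second probe.

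E2f1 and Ccne1, regulators of S-phase entry, went against the bulk of the list. E2f1, the E2F transcription factor, was below the control in all tumours, with levels of −0.29 and −0.10 with shCdh1 hairpins 1 and 2, −0.47 in Apc and −0.53 in Pik3ca, against 0.04 in the control. Its mean difference was −0.39 ± 0.26 (limma adjusted p = 0.569). Ccne1, cyclin E1, had the lowest mean difference of the 36 members, with levels of 0.52 (hairpin 1), 0.21 (hairpin 2), 0.94 (Apc) and 0.20 (Pik3ca), against 1.05 in the control. Apc was close to the control, and hairpin 2 and Pik3ca stood lowest. The mean was −0.58 ± 0.36, a 1.50-fold lower signal (limma adjusted p = 0.545). The single Ccne2 probe read −6.69, −7.16, −6.77 and −8.13 on the arrays of hairpins 1 and 2, Apc and Pik3ca, against −7.04 in the control, not well above background on any, and no fold is given. Uhrf1, which binds hemimethylated DNA behind the fork, was above the control on all 4 arrays, with levels of 2.66 and 3.10 with shCdh1 hairpins 1 and 2, 2.47 in Apc and 2.81 in Pik3ca, against 2.38 in the control. A second Uhrf1 probe gave a mean difference of 0.10 and lay below the control in Apc, at −0.28.

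**Figure D2:**
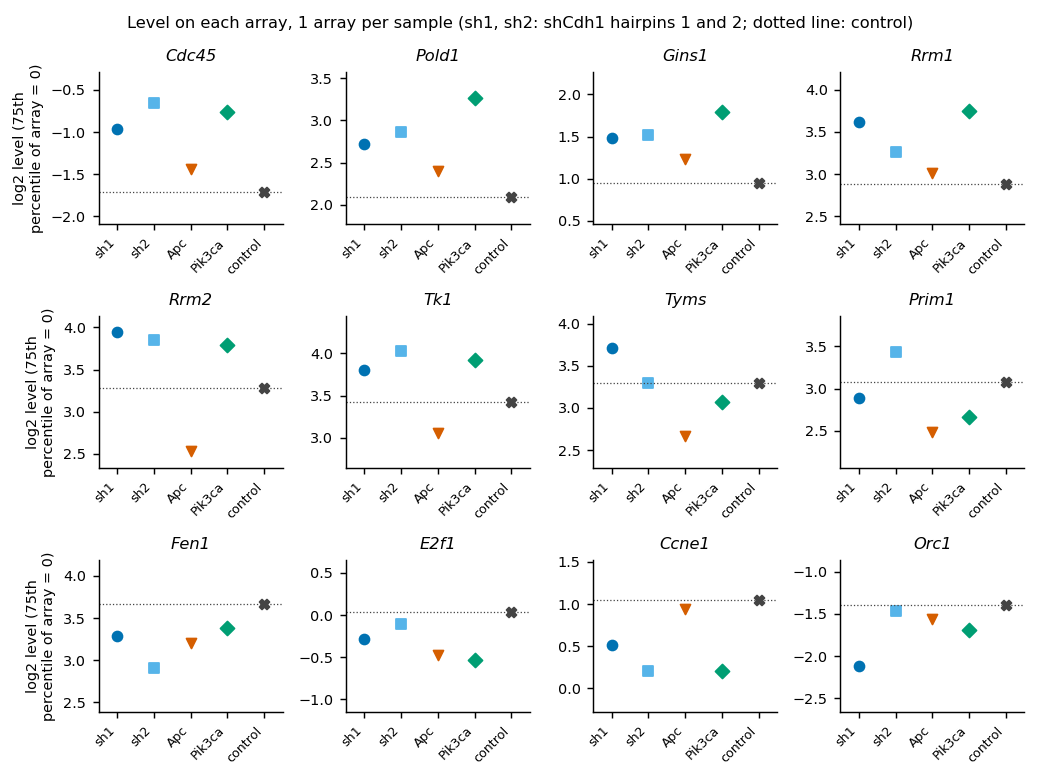
Log2 level (vertical axis, array 75th percentile = 0) on each of the 5 arrays for 12 members, 1 point per array, with a dotted line at the control. All panels span the same 1.8 log2 units. Cdc45, Pold1, Gins1 and Rrm1 stand above the control on all 4 tumour-derived arrays. Fen1, E2f1, Ccne1 and Orc1 stand below it. Rrm2 and Tk1 are below it in Apc only.

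Each genotype was then compared with the control and with the other tumours in a fit with 1 mean per group, whose spread comes from the hairpin pair alone (1 residual degree of freedom). The comparisons with the control share that 1 array. 0 of 36 members passed in any of these comparisons, where 0% of the 17583 genes passed in each of them, and limma with a trended prior also passed 0 members. At an unadjusted p under 0.05 stood Pold1 in Pik3ca against the control and Rrm2 in 3 comparisons among the tumours. That is 1 of 36 members (2.78%) in each, against 11.5% of all genes for Pik3ca against the control, 6.03% for Apc and for shCdh1 against the other tumours, and 6.16% for Apc against Pik3ca. With shCdh1 the median member was 0.35 above the control (0.09 over all genes), and 31 of 36 were above it (9954 of all 17583). None reached 2-fold, against 16.5% of all genes. Cdc45 was the largest, at 0.90 ± 0.31 (limma adjusted p = 0.521), then Pold1 at 0.70 ± 0.28, Ccne1 at −0.68 ± 0.31, Pola1 at 0.65 ± 0.28 and Pole at 0.63 ± 0.29. In Apc the median was −0.09 (−0.01 over all genes), 15 of 36 were above the control (8664 of all 17583), and none reached 2-fold, against 17.8%. The largest Apc differences were all below the control: Rrm2 at −0.75 ± 0.31 (limma adjusted p = 0.625), Tyms at −0.62 ± 0.39, Prim1 at −0.58 ± 0.44, Rfc5 at −0.57 ± 0.31 and E2f1 at −0.51 ± 0.33. In Pik3ca the median was 0.26 (0.06 over all genes), and 28 of 36 were above the control (9540 of all 17583). Pold1 alone reached 2-fold, against 22.1% of all genes, followed by Cdc45 at 0.96 ± 0.36, Rrm1 at 0.86 ± 0.37, Gins1 at 0.85 ± 0.31 and Ccne1 at −0.84 ± 0.36.

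Comparisons among the tumours leave the control out. Apc against the mean of shCdh1 and Pik3ca gave a median of −0.35 (−0.06 over all genes). In Apc 32 of 36 members were lower (9821 of all 17583 genes) and 4 higher. Neighbouring lists were lower in Apc too: 30 of 30 mitotic genes (median −0.31), 33 of 40 further replication factors (median −0.23) and 16 of 18 chromatin genes (median −0.33). The medians were smaller for nucleotide supply (19 of 25 lower, −0.18) and for E2F, pocket protein and G1 cyclin genes (22 of 30 lower, −0.11). Rrm2 was 2.49-fold lower in Apc, −1.32 ± 0.26 on the log2 scale, with an unadjusted p of 0.0154 and a limma adjusted p = 0.59. It was the only member past 2-fold, against 11.3% of all genes. The 4 members higher in Apc were Ccne1, at 0.66 ± 0.30, and, by less, Rfc3, Orc1 and Mcm10. By its second probe Orc1 was lowest in Apc among the tumours, at a level of −3.39. shCdh1 against the mean of Apc and Pik3ca gave a median of 0.19 (0.03 over all genes), with 29 of 36 higher (9540 of all 17583) and none at 2-fold, against 8.92%. Rrm2 was the largest there, at 0.73 ± 0.22 (unadjusted p of 0.0463, limma adjusted p = 0.815). Pik3ca against the mean of shCdh1 and Apc gave 0.14 (0.01 over all genes), with 24 of 36 higher (9025 of all 17583) and none at 2-fold, against 10.5%. After quantile normalization that last median was 0.063. None of these differences passed. In Apc, 6 of 10 fibroblast markers were well above background, against 3 or 4 on the other tumour-derived arrays and 3 in the control, and the Dcn signal was well above background in Apc alone. Of the 6 fibroblast markers tested, 4 were at least 2-fold higher in Apc than in the control and none 2-fold lower. Over all genes 17.8% differed 2-fold either way. The median difference of the 6 was 2.08. Against shCdh1 and Pik3ca their Apc median was 1.02 (range −0.45 to 3.86). Only 3 of the 10 were well above background on all 5 arrays. A marker above background in Apc alone could enter the tested set, so the filter itself could raise these Apc medians. The summed level (log2) of all 10 was 3.40 in Apc, against 3.52 in the control. Their part in the lower values was not tested.

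Slide 1 and slide 2 each hold a comparison that the slide cannot enter. On slide 2, Apc was lower than Pik3ca for 30 of 36 members and 9494 of all 17583 genes, with a median of −0.30 (−0.04 over all genes). The median was −0.17 after normexp with quantile normalization. Only Rrm2 reached 2-fold, against 14.1% of all genes, at −1.26 ± 0.31 (unadjusted p of 0.0281, limma adjusted p = 0.71), followed by Tk1 at −0.86 ± 0.34 and Pold1 at −0.86 ± 0.32. On slide 1, shCdh1 was higher than the control for 31 of 36 members and 9954 of all 17583 genes. These comparisons share no array. 28 members were higher with shCdh1 than in the control and lower in Apc than in Pik3ca, 3 were higher in both, 2 lower in both, and 3, Ccne1, Orc1 and E2f1, lower with shCdh1 and higher in Apc. The first of these patterns also held for 29 of 30 mitotic genes and for 6196 of 17583 genes. It held for Orc1 too by its second probe, at 0.33 for shCdh1 minus control and −0.22 for Apc minus Pik3ca. Across the 36 members the differences had a Pearson correlation of −0.62, against −0.41 over 30 mitotic genes and −0.15 over all genes tested. This is a correlation across genes, which are not independent replicates.

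**Figure D3:**
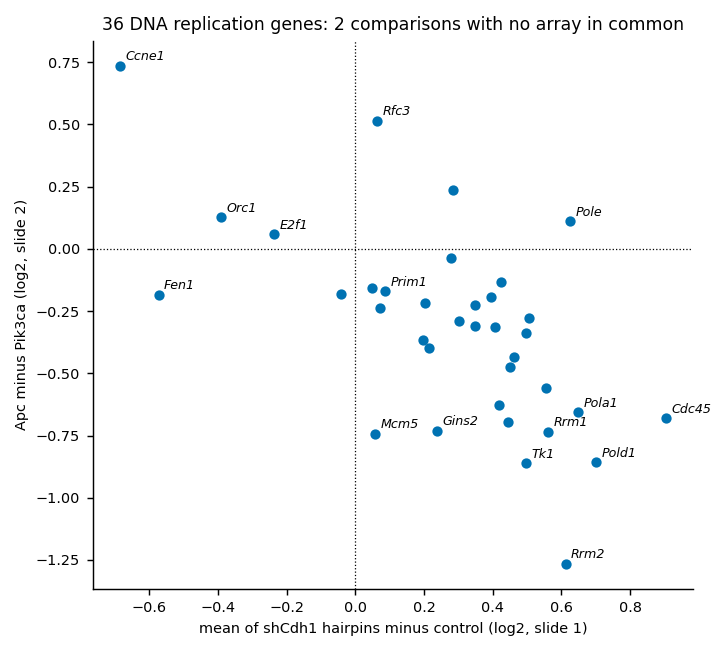
Difference of the shCdh1 mean from the control on slide 1 (horizontal axis, log2) against the difference of Apc from Pik3ca on slide 2 (vertical axis, log2), 1 point per member. Most points, 28 of 36, lie to the lower right, with Rrm2 lowest; Ccne1 lies at the upper left.

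The hairpins lay close to each other. The median gap between them was 0.16 over the members, against 0.27 over the genes well above background on all 5 arrays, and no member differed 2-fold between them, against 7.52% of those genes. The 4 tumours together spanned a median of 0.56, against 0.55. A tumour range of at least 2-fold was found for 2 of 36 members (5.56%), against 18.4% of those genes. 15 members had more than 1 probe, with 16 further probes. The sign matched that of the probe used for 12 of 16 in the tumour mean against the control, 14 of 16 for shCdh1 against the control and 15 of 16 for Apc against Pik3ca. The 4 that did not match in the tumour mean were probes for Orc1, Mcm6, Gins2 and Tyms.

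**Figure D4:**
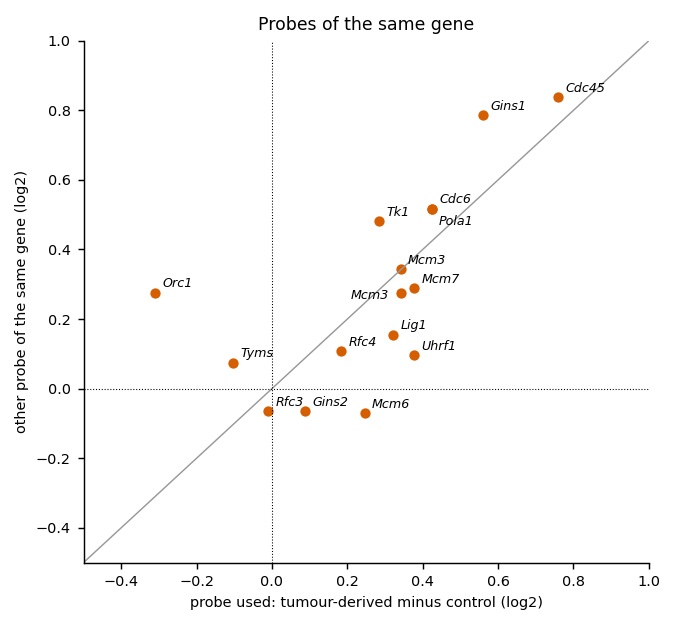
Mean tumour-minus-control difference (log2) of the further probes of a gene (vertical axis) against the probe used (horizontal axis), 16 probes of 15 genes, with the line of equality. Cdc45 and Gins1 are high by both probes; Orc1 is the point farthest from the line.

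Further lists cover other genes of the pathway. Over all genes tested, 9747 of 17583 were higher in the tumour mean (median 0.06), and 0.119% passed either way. The share of nucleotide supply genes that were higher was close to that of all genes. Of 40 further replication factors 26 were higher in the tumour mean (median 0.16), and 0 passed. The largest were Cdc7, the kinase that activates origins, at 1.02 ± 0.26 (limma adjusted p = 0.266), Dna2, a nuclease and helicase for Okazaki fragments, at −0.92 ± 0.53, the origin recognition subunit Orc4 at 0.86 ± 0.23, and Topbp1, a factor of origin firing and checkpoint signalling, at 0.73 ± 0.25. Of 25 genes of nucleotide supply 14 were higher (median 0.14) and 0 passed, with Ctps, CTP synthase, at 0.95 ± 0.33, Dck, deoxycytidine kinase, at 0.84 ± 0.36, Samhd1, a dNTP hydrolase, at 0.82 ± 0.42, and Paics, of purine synthesis, at 0.61 ± 0.21. Of 18 genes of chromatin at replication 15 were higher (median 0.24) and 0 passed, led by Slbp, the histone mRNA binding protein, at 0.54 ± 0.29, Brca1 at 0.46 ± 0.27, the mismatch repair gene Msh6 at 0.43 ± 0.38 and the maintenance methyltransferase Dnmt1 at 0.38 ± 0.24.

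In the list of E2F, pocket protein and G1 cyclin genes 19 of 30 were higher (median 0.20), against 9747 of 17583 genes. Of the 30, 1 passed, against 0.119% of all genes. Cdkn2a, which encodes cyclin-dependent kinase inhibitor proteins of the p16 and Arf kind, rose, with levels of 6.01 and 5.98 with shCdh1 hairpins 1 and 2, 5.75 in Apc and 5.74 in Pik3ca, against 2.07 in the control. Its difference was 3.80 ± 0.23 (limma adjusted p = 0.021). Cdkn1a, the Trp53 target p21, had levels of 2.08 (hairpin 1), 1.82 (hairpin 2), 1.31 (Apc) and 2.65 (Pik3ca), against 4.03 in the control, a difference of −2.07 ± 0.52 that did not pass (limma adjusted p = 0.268). Cdkn1c, another inhibitor, differed by 1.69 ± 0.65, and Ccnd2, a D-type cyclin, by −1.40 ± 0.43, and neither passed.

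The mitotic genes, which act later in the cycle, stood farther from the control. All 30 had a higher tumour mean, with a median of 0.69, and 28 of 30 were above the control on all 4 arrays, against 14 of 36 replication genes. None passed by limma, and 13 had an unadjusted p under 0.05, against 13.3% of all genes. Their medians by array were 0.53 with hairpin 1, 0.85 with hairpin 2, 0.50 in Apc and 0.90 in Pik3ca. In Apc 29 of 30 mitotic genes were above the control, against 15 of 36 replication genes, and counts under the other scalings were 28 or 29 and 12 to 18. Examples were Anln, a cytokinesis scaffold, at 1.36 ± 0.37, Prc1, a spindle midzone protein, at 1.21 ± 0.32, Aurka, a mitotic kinase, at 1.14 ± 0.37, and Tpx2, its activator, at 1.14 ± 0.35. The lists were not tested against each other.

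**Figure D5:**
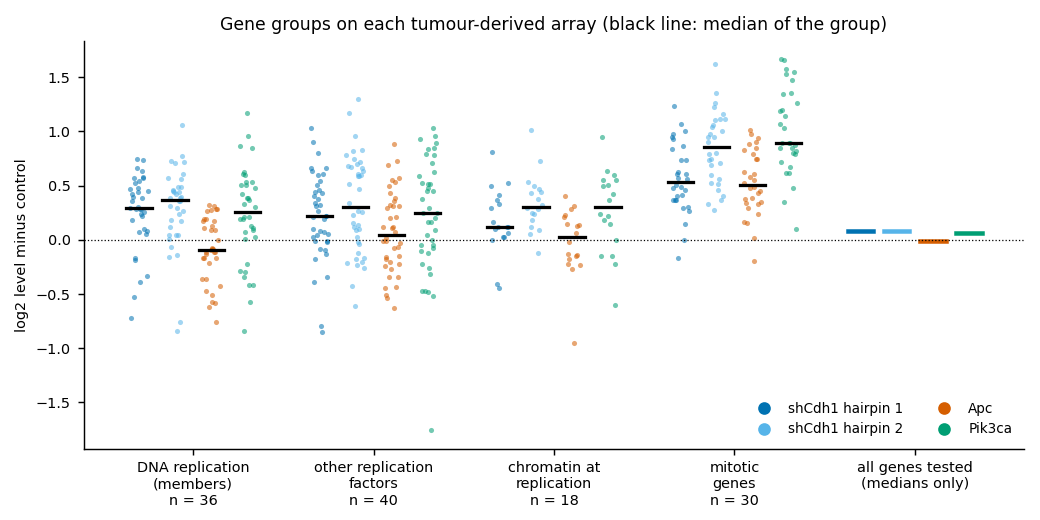
Log2 difference from the control on each tumour-derived array for 4 gene groups, 1 point per gene, with the group's median as a black line, and the median of all genes tested as coloured lines at the right. In Apc the replication members have a median of −0.09 and the mitotic genes 0.50.

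Among 11622 genes outside the lists, well above background on all 5 arrays and at least as variable as the members' mean profile, those with the most similar profile included Rab5c, Clcf1, Fos, Tanc2, P2ry2, Mettl16, Vapa, Nr1i3 and 4930429D17Rik. Their Pearson correlation with it was 0.989 to 0.996 over the 5 arrays. The members' mean profile, each member centred on its own mean, was 0.12 and 0.16 with hairpins 1 and 2, −0.23 in Apc and 0.09 in Pik3ca, against −0.14 in the control. Fos, an immediate early transcription factor gene, had levels of 2.13 and 2.30 with hairpins 1 and 2, 1.20 in Apc and 2.19 in Pik3ca, against 1.46 in the control. These correlations are a description over 5 arrays.

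Facts of the arrays as a whole bear on these values. Between 61.8% and 65.3% of 59305 non-control spots were well above background, none was saturated, and the ratio of the 75th percentile of signal to the median local background lay between 24.0 and 27.9. Precision is limited by the number of arrays. Cdh1 and Trp53, the genes targeted for loss, followed the labels. Cdh1 read 0.07 and 0.26 with hairpins 1 and 2, 4.48 in Apc and 4.58 in Pik3ca, against 4.39 in the control, and Trp53 read between −5.86 and −4.86 in the tumours, against 0.85 in the control. Signals of Apc and Pik3ca were not used as a check of the alleles. Of 20 gastric and epithelial markers 19 or 20 were well above background on every array. In the tumour mean 15 of the 20 were below the control (median −0.36, lowest −4.41). At least 2-fold lower were 7 and none was 2-fold higher, against 16.9% of all genes that differed 2-fold either way. Cdh1, the target of the hairpins, is on this list and among the 7. Leukocyte markers above background numbered 5 to 7 of 10 in the tumours, against 6 in the control, and endothelial ones 4 or 5 of 8, against 4. In the tumour mean the 7 endothelial markers tested differed from the control by −5.54 to 2.76. Of these 7, 1 passed by limma, as lower, against 0.119% of all genes that passed either way. The summed level (log2) of leukocyte markers was 4.46 to 5.05, against 4.14, that of fibroblast markers 3.40 to 3.92, against 3.52, that of endothelial markers 0.72 to 1.60, against 2.30, and that of gastric and epithelial markers 9.38 to 9.76, against 10.02. The median fibroblast marker of the 6 tested differed from the control by −0.09 with hairpin 1, 0.71 with hairpin 2, 2.08 in Apc and 0.32 in Pik3ca. A marker above background in Apc alone could enter this set, which could raise the Apc median. Ptprc, the pan-leukocyte marker, was well above background on 3 of 5 arrays. Not well above background on any array were the defining markers Cd79a, Adgre1, Lyz2, Col3a1, Lum, Pdgfrb, Postn and Cldn5. The part of other cells in the replication values was not tested.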

How the data were processed

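RNA of 5 mouse gastric organoid samples was measured on Agilent 1-colour arrays. The submitters' processing notes name Agilent Feature Extraction 11.0.1.1 for reading the scans. In the deposited scanner files the value used is each spot's processed signal, an intensity that is background-subtracted but not normalized between arrays, per the file headers. A value table deposited by the authors holds log2 values. Its differences from the control had a slope of 1 and constants of −0.046 to −0.023 against the scanner values, with column medians of 0.074 and 0.031 for hairpins 1 and 2, −0.080 for Apc, 0.022 for Pik3ca and −0.057 for the control. The value subtracted from each probe stays unknown.

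Log2 signals were reduced by each array's 75th percentile over non-control spots. Outlier spots (78 to 114 per array) were left out, repeated spots were averaged, and 32 of 56605 probes were dropped for lack of a value. Probes were named through their accession and RefSeq's GRCm38.p6 gene table, and 34549 matched a symbol. The probe with the highest mean stood for a gene. A gene was tested if 1 or more of its probes stood well above background on some array.

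Differences were tested two-sided with lmFit and eBayes of limma 3.58.1 (R 4.3.3) over all 17583 genes with Benjamini-Hochberg adjustment. The 4 tumour-derived arrays were set against the control with 3 residual degrees of freedom, the lone control being assumed to vary like them. Genotypes were compared in a second fit with 1 residual degree of freedom. The script was tested on simulated data. Since the scanner files used here hold no mean spot signal, normexp (offset 50) took the median spot and local background intensities.

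Values on every array are given for the 8 members with the largest and the 5 with the lowest mean difference, the 5 with the widest tumour range, the 5 most different from the control in each genotype, and the highest-level member of each role. From each pathway list the 4 genes with the largest differences are named. Array values of other members were chosen after seeing them. Members and lists were chosen with earlier results of these data known. Groups came from the sample descriptions, and slide from the scanner files. The design text counts 7 tumour-derived organoids, of which 4 were analysed here. Of the genes with a profile most like the members', 1 is not reported here.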

Additional observations from a re-analysis of the deposited data

Results flagged for a closer look

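In 3 of the 36 members tested for it, the Apc array stood apart from the other 3 tumour-derived arrays by more than Dixon's critical value for 4 samples allows. Rrm2 was 2.53 in Apc and 3.79 to 3.94 on the other tumour-derived arrays, against 3.28 in the control. Rfc2 was 2.94 in Apc and 3.41 to 3.49 on the others, against 3.04 in the control. Prim2 was 0.79 in Apc and 1.14 to 1.17 on the others, against 0.96 in the control. Chance alone marks about 5% of groups of 4 like samples, but these 4 arrays span 3 genotypes and both slides. The rule was applied to the 36 members only, so no share over all genes stands beside the count. Apc was the lowest of the 4 tumour-derived arrays for 31.3% of all genes.

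For several members Apc was below the control and both shCdh1 hairpins above it. Rrm2 and Tk1 are given because all 3 arrays lay farther from the control than 0.179, the pooled SD of the hairpin pair over the members. By its second probe Tk1 was only 0.13 below the control in Apc, so that probe does not meet the rule. The Apc difference from the control minus that of the shCdh1 mean was −1.37 for Rrm2 and −0.86 for Tk1, on the log2 scale. Apc was not tested against shCdh1 alone, and no share of all genes that meet this rule is given.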

How the results depend on the processing

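No member passed in any comparison under any alternative run. Medians over the members kept their sign under every alternative, except that of Apc against the control, which was 0.014 after normexp with quantile normalization (−0.034 after quantile normalization alone). The limit for calling a median moved was the SD of array medians, and it differed between comparisons. It was 0.205, from the 4 tumour-derived arrays, for their mean against the control, and 0.052, from the hairpin pair, elsewhere. Under its wider limit the former median was not called moved, although it ran from 0.162 to 0.348. Other medians that moved by more than their limit were as follows, and the cause was not tested. After quantile normalization, Pik3ca against control was 0.187, Apc against shCdh1 and Pik3ca −0.259, Pik3ca against shCdh1 and Apc 0.063, and Apc against Pik3ca −0.210. After normexp with quantile normalization, shCdh1 against control was 0.291, Pik3ca against control 0.173, Apc against shCdh1 and Pik3ca −0.257, Pik3ca against shCdh1 and Apc 0.064, and Apc against Pik3ca −0.166. With arrays centred on their medians, Apc against shCdh1 and Pik3ca was −0.425 and Apc against Pik3ca −0.374. With all probes averaged, Pik3ca against control was 0.206. With the median of all genes subtracted, an alternative chosen after seeing the data, shCdh1 against control was 0.257, Pik3ca against control 0.196, and Apc against shCdh1 and Pik3ca −0.288. With the slide as a block, single genes changed sign: Rfc5 was 0.049, Tyms 0.215 and Prim1 0.087. Leaving out 1 tumour-derived array at a time gave −0.279 to 0.069 for Tyms, above 0 only without Apc. Leaving out 1 tumour-derived array at a time gave medians of 0.162 to 0.300 against the control, and leaving out a hairpin gave 0.297 to 0.370 for shCdh1 against control, −0.360 to −0.333 for Apc against the others, 0.146 to 0.154 for Pik3ca against the others and 0.206 to 0.223 for shCdh1 against the others. Without a hairpin the genotype fit has no residual degrees of freedom, so these are values without a test. The control could not be left out. No paired analysis was possible because the groups compared share fewer than 2 replicate numbers. Among the limits, most groups hold 1 array, and signal over background did not limit the 36 tested members.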
